A study of Arabidopsis thaliana with 12 samples.

Results

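The 9 genes described here are regulators of the shoot meristem, of organ boundaries and of the leaf base, followed in wild-type and geralt mutant seedlings of Arabidopsis thaliana. They were chosen by name around SHOOT MERISTEMLESS (STM), which had already been seen to be higher in geralt in these libraries, and the question for the other 8 was whether they were higher with it. The 9 genes are STM, KNAT1, KNAT2, KNAT6, CUC1, CUC2, CUC3, AS1 and AS2, out of 27655 genes listed. All 9 had enough reads for the test, as did 21122 genes in all. Because the choice rests on the difference between genotypes, values for that difference are given as a description, with no p-value for a chosen gene. For STM all 6 geralt libraries lay above all 6 wild-type libraries, for KNAT1 the genotypes were apart within each age, and for each of the other 7 they overlapped at 5 or at 12 days or at both. Where a chosen gene is said to be past the test's threshold between genotypes, this describes the libraries it was chosen on and is no independent test.

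The libraries came from whole plants of Col wild type (N6000) and of the T-DNA line SALK_116579, called geralt and titled phr2, harvested at 5 days or at 12 days. Each of the 4 groups, 2 genotypes by 2 ages, held 3 polyadenylated RNA libraries. All plants grew in vitro on the same B5 medium with sucrose under short days, and the mutant is 1 insertion line. Per its title, the series concerns the control of chloroplast formation and chlorophyll synthesis with age.

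Class I KNOX proteins such as STM are homeodomain transcription factors that keep cells of the shoot meristem dividing and undifferentiated, and they are switched off where a leaf starts. CUC proteins are NAC-domain factors that mark the boundary between meristem and organ and are needed to switch on STM in the embryo. AS1, a MYB protein, and AS2, a LOB-domain protein, act together in young leaves to keep KNAT1, KNAT2 and KNAT6 silent, while STM holds AS1 back in the meristem.

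Short sequences show how the CUC genes and the KNOX genes are known to be addressed. The microRNA miR164 cuts the transcripts of CUC1 and CUC2, and CUC3 is known to escape it. The mature miR164a and the best-matching 21-base site in each CUC transcript follow, from the RefSeq assembly TAIR10.1 and read 5′ to 3′ on the transcribed strand. Capitals in the microRNA mark the seed, bases 2 to 8. Capitals in the sites mark bases that differ from the exact complement of miR164a. Each such base is counted as a mismatch, also where it could form a G:U pair.
miR164a (chr2:19520770-19520790, plus strand): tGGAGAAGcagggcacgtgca
CUC1 (chr3:5111137-5111157, plus strand): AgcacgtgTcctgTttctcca
CUC2 (chr5:21902301-21902321, minus strand): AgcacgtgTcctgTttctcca
CUC3 (chr1:28672053-28672073, minus strand): CAcaTgCTAcTAgAttctcca
The CUC1 and CUC2 sites have the same 21 bases with 3 mismatches, whereas the best stretch of CUC3 has 9. A site with at most 3 mismatches was found in 6 of 27441 genes searched (0.0219%). MIR164A lies 909 bases upstream of PHR2, the gene after which the mutant libraries are titled. The level of miR164 was not analysed here.

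KNOX proteins bind DNA at a TGAC core. The 250 bases before the start of the 3 members that passed the test over both ages are shown, from TAIR10.1 and on the strand of the gene, because these 3 passed; capitals mark TGAC on either strand, which reads GTCA on the other.
STM (chr1:23062064-23062313, minus strand): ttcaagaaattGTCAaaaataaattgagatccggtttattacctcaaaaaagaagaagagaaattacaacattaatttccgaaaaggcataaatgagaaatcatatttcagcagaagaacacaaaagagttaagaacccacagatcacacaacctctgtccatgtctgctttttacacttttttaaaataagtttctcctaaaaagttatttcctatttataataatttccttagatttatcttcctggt
KNAT1 (chr4:5151160-5151409, minus strand): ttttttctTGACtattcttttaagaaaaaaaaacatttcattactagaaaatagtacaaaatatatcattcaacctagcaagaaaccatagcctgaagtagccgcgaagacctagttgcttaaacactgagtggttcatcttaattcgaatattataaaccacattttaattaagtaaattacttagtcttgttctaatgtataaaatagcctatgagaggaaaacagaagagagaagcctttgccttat
KNAT2 (chr1:26576236-26576485, plus strand): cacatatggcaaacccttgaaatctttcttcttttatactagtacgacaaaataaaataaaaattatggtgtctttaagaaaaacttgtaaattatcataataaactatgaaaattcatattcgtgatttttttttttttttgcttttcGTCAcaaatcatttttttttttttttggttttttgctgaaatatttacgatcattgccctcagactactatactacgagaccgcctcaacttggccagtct
Each of the 3 windows held 1 TGAC, the same number as the median over 27443 promoters, of which 75.5% held at least 1. The longer motif TGACAGNT, searched on both strands and overlapping TGAC by its first 4 letters, was in none of the 3 and in 2.08% of all promoters. Among the other members, CUC1 and AS1 had 4 TGAC each, CUC3 had 1, and KNAT6, CUC2 and AS2 had none; CUC1 held the only TGACAGNT of the 9.

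Library totals ran from 41.6 to 115 M gene reads. PHR2, the gene named in the mutant titles, had 20.6 to 39.7 CPM (reads of a gene per M gene reads, with library totals scaled by TMM factors) in the 6 geralt libraries. In wild type it had 89.2 CPM in library 4 and 193 to 271 CPM in the other 5 libraries. Libraries of a group differed by far more than counting noise (chi-square per degree of freedom 69.7 to 519). Some libraries stood apart from their labels. Wild-type library 4 at 5 days correlated as closely with the geralt 5-day libraries (mean r = 0.964) as with its own group (0.965), against 0.932 and 0.943 for the other wild-type 5-day libraries. For 7 genes that stayed under 0.5 CPM in all wild-type libraries but this and passed 2 CPM in all 6 geralt libraries, library 4 reached 30.8% to 52.1% of the geralt 5-day mean. All 3 geralt libraries at 12 days were closer to the geralt 5-day libraries than to each other, library 5 by more (mean r = 0.957 against 0.939) than libraries 9 (0.957 against 0.954) and 11 (0.955 against 0.953). Geralt libraries 5 and 11 were also closer to the wild-type 5-day libraries (0.946 and 0.955) than to the rest of their own group. Geralt library 9 was not (0.95). Wild-type library 6 at 12 days was closer to the wild-type 5-day libraries (0.958) than to its own (0.94). It was as close to the geralt 12-day libraries (0.941) as to its own.

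STM (AT1G62360, chr1:23058582-23062063, minus strand, 4 exons) is the gene that defines the shoot meristem program. At 5 days it had 5.39, 10.2 and 5.97 CPM in wild-type libraries 2, 4 and 8, and 26.0, 19.4 and 19.3 CPM in geralt libraries 1, 3 and 7. At 12 days it had 5.92, 6.58 and 7.60 CPM in wild-type libraries 6, 10 and 12, and 17.4, 17.9 and 18.8 CPM in geralt libraries 5, 9 and 11. Every geralt library was above every wild-type library, and the highest wild-type value was that of library 4. STM was the only member of which this was true across both ages; 1.07% of all tested genes were arranged this way.

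The STM level was 2.98-fold higher in geralt at 5 days (log2 fold change 1.58 ± 0.25, SE) and 2.69-fold higher at 12 days (1.43 ± 0.25, SE), each from 3 against 3 libraries. Every SE of a log2 fold change comes from the fit over all 12 libraries, not from the libraries compared alone. Without wild-type library 4 the log2 fold change at 5 days was 1.92. STM was past the threshold of an adjusted p of 0.05 (edgeR quasi-likelihood test with Benjamini-Hochberg adjustment over 21122 genes) at both ages and over the mean of both. The call at 5 days ended without geralt library 1, 3 or 7 (1.42, 1.65 and 1.65) or without wild-type library 2 or 8 (1.41 and 1.46). The call at 12 days ended without wild-type library 10 or 12 (1.41 and 1.53), geralt library 5 or 9 (1.45 and 1.43), or 5-day geralt library 1, 3 or 7 (1.43 each). The call over both ages was kept in all 12 fits that left out 1 library, with log2 fold changes of 1.42 to 1.68. In these bulk RNA samples, more cells of a type and more RNA per cell cannot be told apart.

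**Figure D1:**
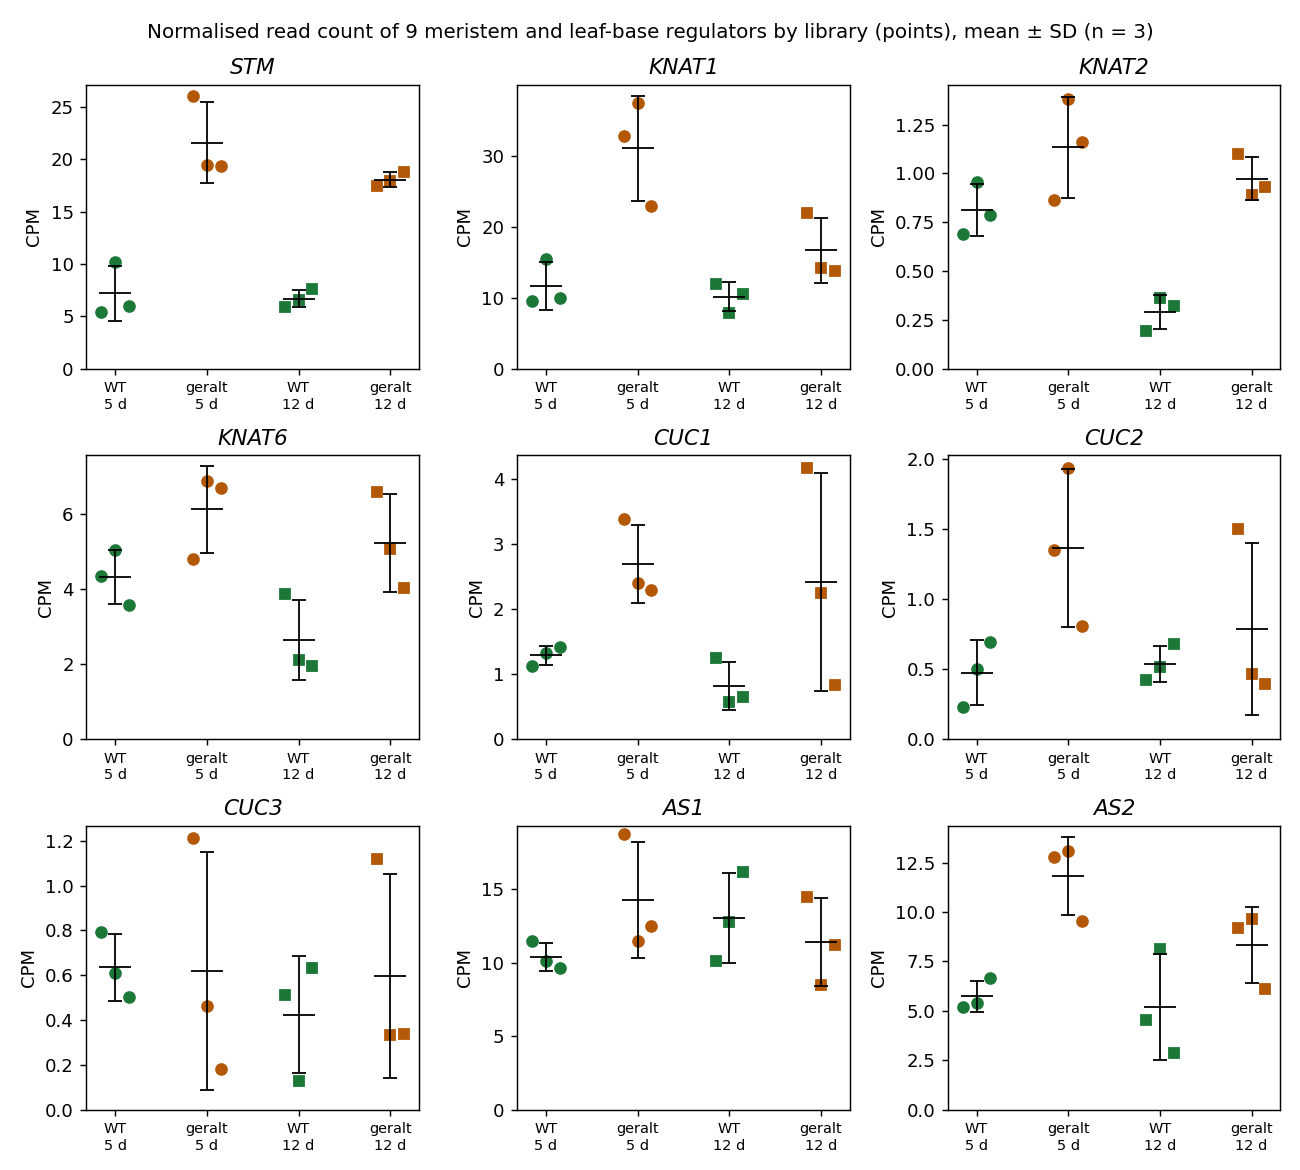
CPM of the 9 genes (y axis, linear, from 0) in each library (points; circles 5 days, squares 12 days; green wild type, brown geralt), with the mean and SD of 3 libraries as bars. STM is the gene in which all 6 geralt libraries lie above all 6 wild-type libraries; CUC3 overlaps at both ages.

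KNAT1, also called BREVIPEDICELLUS (AT4G08150, chr4:5147699-5151159, minus strand), shapes the stem and pedicel and overlaps in role with STM. At 5 days it had 9.51, 15.5 and 9.99 CPM in wild-type libraries 2, 4 and 8, and 32.8, 37.4 and 22.9 CPM in geralt libraries 1, 3 and 7. At 12 days the wild-type values were 12.0, 7.90 and 10.6 CPM (libraries 6, 10 and 12) and the geralt values 22.0, 14.2 and 13.8 CPM (libraries 5, 9 and 11). The groups did not overlap at either age, although the 12-day geralt values of libraries 9 and 11 lay below wild-type library 4 at 5 days. Non-overlap in this direction at both ages was found for STM and KNAT1 among the 9, and for 2.51% of tested genes.

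The KNAT1 level was 2.65-fold higher in geralt at 5 days (log2 fold change 1.41 ± 0.29, SE) and 1.64-fold higher at 12 days (0.71 ± 0.28, SE). Neither was past the threshold with all 12 libraries. The 5-day value was past it without wild-type library 4 (1.67), geralt library 5 (1.41) or wild-type library 12 (1.40). Over the mean of both ages KNAT1 was 2.08-fold higher (1.06 ± 0.20, SE) and past the threshold, also in each of the 12 fits without 1 library.

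KNAT2 (AT1G70510, chr1:26576486-26582879, plus strand) and KNAT6 (AT1G23380, chr1:8297241-8302651, minus strand) are a pair of closely related KNOX genes; KNAT6 is known to support STM in the embryo meristem. KNAT2 was scarce, with 11 to 125 reads per library. It had 0.692, 0.955 and 0.789 CPM in wild-type libraries 2, 4 and 8 and 0.865, 1.38 and 1.16 CPM in geralt libraries 1, 3 and 7, which overlap. Its 12-day levels were 0.195, 0.362 and 0.321 CPM in wild-type libraries 6, 10 and 12 and 1.10, 0.889 and 0.932 CPM in geralt libraries 5, 9 and 11. The 12-day groups were far apart, with wild type low, while the geralt values remained within the range of the 5-day libraries.

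For KNAT2 the log2 fold change was 0.47 ± 0.40 (SE) at 5 days, 1.73 ± 0.42 at 12 days and 1.10 ± 0.29 over both ages, the last past the threshold. That call ended in each of the 12 fits without 1 library, where the log2 fold change was 0.99 to 1.19. It also ended when exon reads alone were counted (0.71) and with no filter on low counts (1.10). Intron reads made up 11.1% to 57.4% of KNAT2 reads per library, against 0% to 4.33% for STM. At 12 days the intron level of KNAT2 was 0.106, 0.129 and 0.0357 CPM in wild type (libraries 6, 10 and 12) and 0.487, 0.445 and 0.536 CPM in geralt (libraries 5, 9 and 11), without overlap. No listed gene overlaps KNAT2.

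KNAT6 had 4.33, 5.02 and 3.58 CPM in wild-type libraries 2, 4 and 8 and 4.79, 6.87 and 6.68 CPM in geralt libraries 1, 3 and 7. By 12 days the levels were 3.85, 2.12 and 1.95 CPM in wild-type libraries 6, 10 and 12 and 6.58, 5.07 and 4.01 CPM in geralt libraries 5, 9 and 11. The groups overlapped at 5 days and were separated at 12 days only narrowly, by wild-type library 6 against geralt library 11. The log2 fold change was 0.50 ± 0.31 (SE) at 5 days and 0.98 ± 0.32 at 12 days, neither past the threshold. Without wild-type library 6 the 12-day value was 1.36 and the value over both ages 0.93 in place of 0.74, and both passed. Intron reads made up 13.0% to 29.9% of KNAT6 reads.

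**Figure D2:**
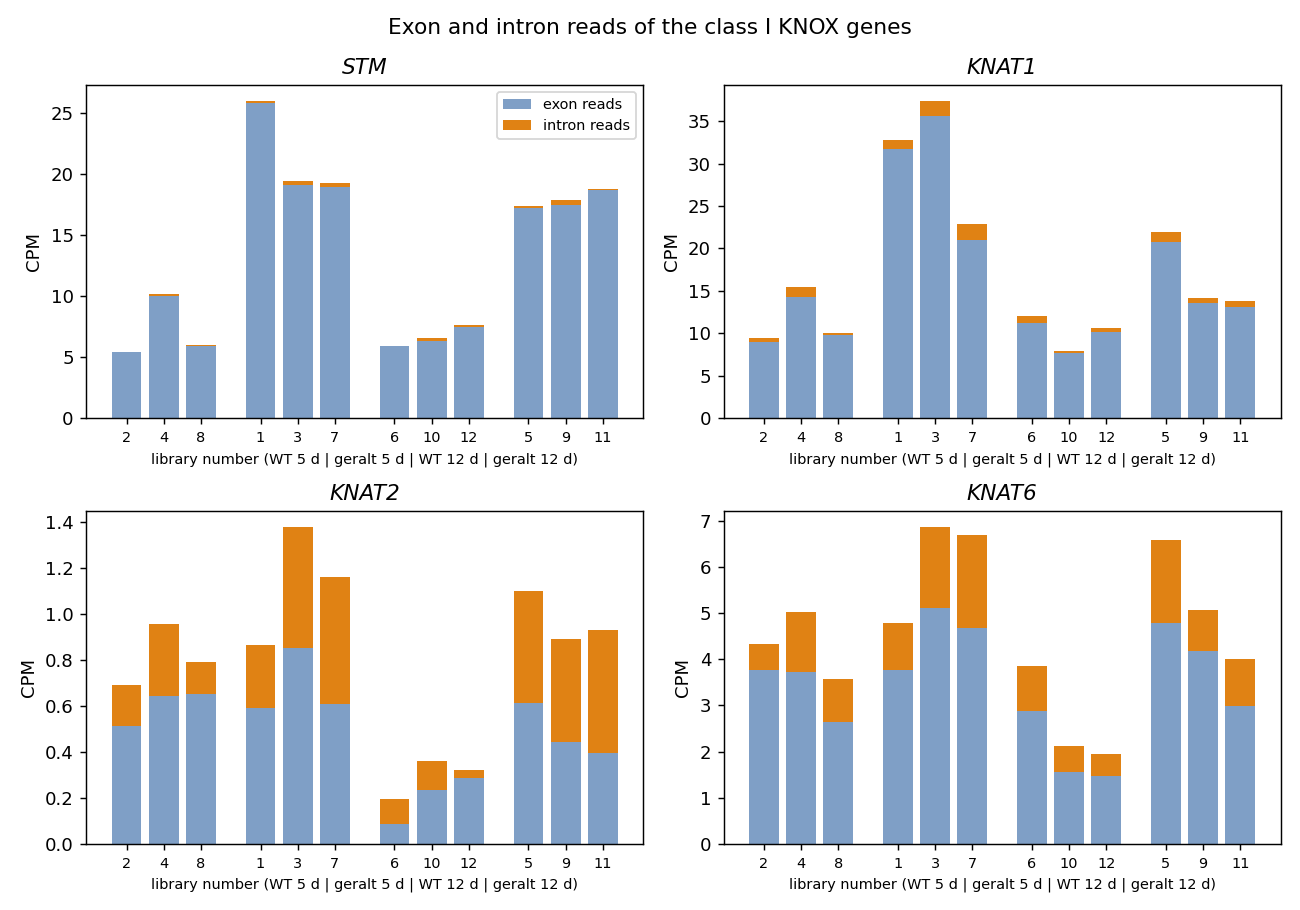
CPM from exon reads (blue) and intron reads (orange), stacked from 0, for the 4 class I KNOX genes in each library, numbered on the x axis and ordered by group. The difference in STM and KNAT1 is seen in exon reads, while intron reads are up to 57.4% of KNAT2.

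Per transcript length, using the authors' TPM, STM made up 29.9% to 36.9% of the summed class I KNOX level in wild type at 5 days and 34.0% to 44.7% in geralt. At 12 days its share was 31.0% to 42.3% in wild type and 41.9% to 55.2% in geralt. The ranges overlap at both ages, at 12 days by the margin between wild-type library 10 (42.3%) and geralt library 5 (41.9%). In wild type at 5 days the order of mean TPM (± SD, n = 3) was KNAT1 (8.86 ± 3.88), AS1 (8.46 ± 1.46), STM (6.83 ± 3.68), KNAT6 (3.83 ± 1.18), AS2 (3.46 ± 0.507), CUC1 (1.59 ± 0.300), CUC3 (0.670 ± 0.223), KNAT2 (0.522 ± 0.128) and CUC2 (0.505 ± 0.239). Neighbours in this order overlapped in range except AS2 and CUC1, and CUC1 and CUC3. In geralt at 5 days KNAT1 (26.7 ± 5.73) and STM (22.9 ± 3.45) led, overlapping each other and standing clear of AS1 (13.6 ± 3.35). In geralt at 12 days STM (19.1 ± 2.18) was first, KNAT1 (14.7 ± 6.20) next and AS1 (10.9 ± 4.09) after them, each overlapping its neighbour. In wild type at 12 days AS1 (8.93 ± 3.27), KNAT1 (6.39 ± 1.99) and STM (5.08 ± 1.44) overlapped in the same way. KNAT2 was last in both geralt groups and in wild type at 12 days.

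CUC1 (AT3G15170, chr3:5109782-5111608, plus strand) was the most abundant of the boundary NAC genes, and it sets the cotyledon boundary together with CUC2. It had 1.13, 1.32 and 1.42 CPM in wild-type libraries 2, 4 and 8 and 3.38, 2.40 and 2.29 CPM in geralt libraries 1, 3 and 7. At 12 days it had 1.24, 0.570 and 0.643 CPM in wild-type libraries 6, 10 and 12 and 4.17, 2.25 and 0.833 CPM in geralt libraries 5, 9 and 11. The groups were apart at 5 days and overlapped at 12 days, where geralt library 11 lay among the wild-type values. The log2 fold change was 1.06 ± 0.50 (SE) at 5 days, 1.56 ± 0.52 at 12 days and 1.31 ± 0.36 over both ages, none past the threshold. The value over both ages passed without wild-type library 6 or geralt library 11 (1.52 in each case).

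CUC2 (AT5G53950, chr5:21901704-21903854, minus strand), which also shapes leaf teeth, had 9 to 125 reads per library. It had 0.231, 0.504 and 0.693 CPM in wild-type libraries 2, 4 and 8 and 1.35, 1.94 and 0.808 CPM in geralt libraries 1, 3 and 7, without overlap. Its 12-day levels were 0.424, 0.518 and 0.678 CPM in wild-type libraries 6, 10 and 12 and 1.50, 0.467 and 0.397 CPM in geralt libraries 5, 9 and 11, where library 5 alone was high. The log2 fold change was 1.50 ± 0.61 (SE) at 5 days and 0.54 ± 0.60 at 12 days, neither past the threshold. Without geralt library 5 the 12-day value was -0.33.

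CUC3 (AT1G76420, chr1:28671806-28674045, minus strand), the CUC gene with the poor miR164 match shown above and a role in axillary meristems, had 5 to 88 reads per library. It had 0.795, 0.611 and 0.501 CPM in wild-type libraries 2, 4 and 8 and 1.21, 0.465 and 0.184 CPM in geralt libraries 1, 3 and 7. At 12 days the wild-type values were 0.513, 0.129 and 0.631 CPM (libraries 6, 10 and 12) and the geralt values 1.12, 0.333 and 0.337 CPM (libraries 5, 9 and 11). The groups overlapped at both ages, and the log2 fold changes of -0.03 ± 0.76 and 0.47 ± 0.77 (SE) were smaller than their errors. With errors of this size, a difference as large as that of CUC1 was not detectable for CUC3. Whether the CUC genes differ from each other in their response was not tested.

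AS2 (AT1G65620, chr1:24398143-24400989, plus strand), the LOB-domain partner that keeps KNOX genes off in leaves, had 5.18, 5.38 and 6.64 CPM in wild-type libraries 2, 4 and 8 and 12.8, 13.1 and 9.55 CPM in geralt libraries 1, 3 and 7. By 12 days the levels were 4.54, 8.13 and 2.87 CPM in wild-type libraries 6, 10 and 12 and 9.18, 9.65 and 6.13 CPM in geralt libraries 5, 9 and 11. The groups were apart at 5 days, and at 12 days geralt library 11 lay below wild-type library 10. The log2 fold change was 1.05 ± 0.34 (SE) at 5 days, 0.69 ± 0.34 at 12 days and 0.87 ± 0.24 over both ages, none past the threshold. The value over both ages passed without wild-type library 10 (1.11) or geralt library 11 (0.96).

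AS1 (AT2G37630, chr2:15781232-15783480, minus strand) shares 330 bases with the actin gene ACT1_1 on the opposite strand, and no source used here says whether reads were counted by strand, so its level is uncertain. It had 11.5, 10.1 and 9.67 CPM in wild-type libraries 2, 4 and 8 and 18.8, 11.5 and 12.5 CPM in geralt libraries 1, 3 and 7. At 12 days it had 10.1, 12.8 and 16.2 CPM in wild-type libraries 6, 10 and 12 and 14.5, 8.51 and 11.2 CPM in geralt libraries 5, 9 and 11. The groups were barely apart at 5 days, where wild-type library 2 and geralt library 3 round to the same value, and overlapped at 12 days. The log2 fold change was 0.45 ± 0.26 (SE) at 5 days and -0.19 ± 0.26 at 12 days, neither past the threshold.

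**Figure D3:**
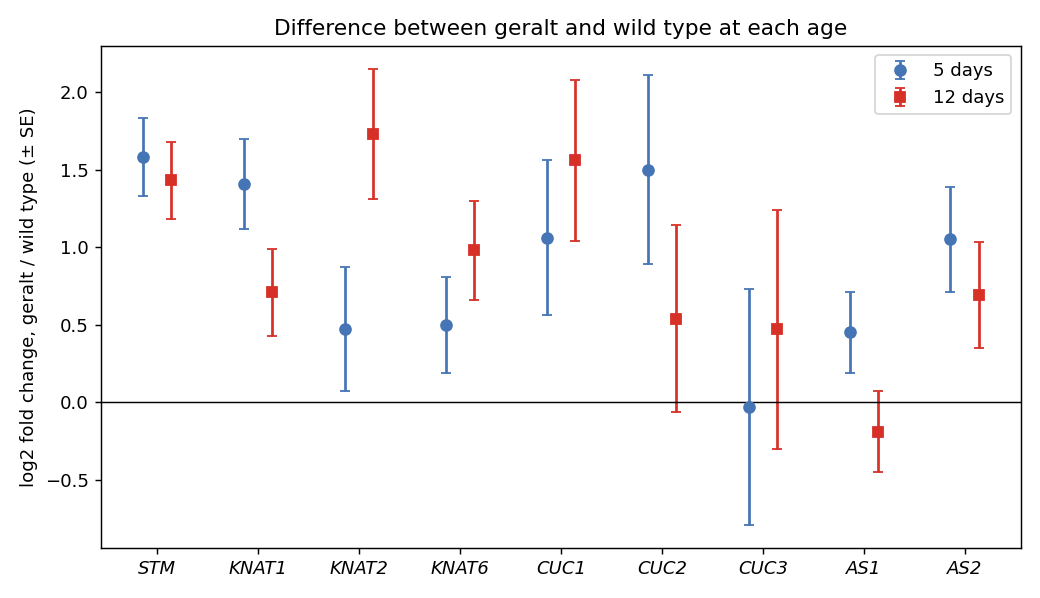
Log2 fold change of geralt against wild type with its SE (y axis) for the 9 genes at 5 days (blue circles) and 12 days (red squares), from 3 against 3 libraries each. The SE comes from the fit over all 12 libraries. STM stands at 1.58 and 1.43, KNAT1 at 1.41 and 0.71, and KNAT2 at 0.47 and 1.73, and the SE bars of the 2 ages overlap for 6 of the 9 genes.

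Counted over the members, 1 of 9 (STM) was past the threshold and higher in geralt at 5 days, where 0.0331% of tested genes were called higher and 0.26% in either direction. At 12 days it was again 1 of 9 (STM), against 0.436% called higher and 0.8% in either direction. Over the mean of both ages it was 3 of 9 (STM, KNAT1 and KNAT2), against 2.21% called higher and 5.53% in either direction. DESeq2, a second test, called 2 of 9 at 5 days (STM and KNAT1; 4.28% of tested genes in either direction), 2 of 9 at 12 days (STM and KNAT2; 6.51%) and 6 of 9 over both ages (those 3 with KNAT6, CUC1 and AS2; 10.8%). The genes were chosen with this contrast known, so nothing is read from these shares. Every geralt library was above every wild-type library for 6 of 9 members at 5 days (STM, KNAT1, CUC1, CUC2, AS1 and AS2; 12.9% of tested genes) and for 4 of 9 at 12 days (STM, KNAT1, KNAT2 and KNAT6; 10.2% of tested genes). The median log2 fold change of the members was 1.05 at 5 days and 0.71 at 12 days, beside medians of 0.01 and -0.02 over all tested genes. In the authors' deposited table, STM, KNAT1, CUC2 and AS2 had an FDR-adjusted p under 0.05 at 5 days, with log2 fold changes of 1.57, 1.41, 1.53 and 1.05, and STM had one at 12 days (1.42). The share of all genes under 0.05 by the authors' test was not counted here, so nothing is read from these numbers of members either.

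Development from 5 to 12 days was tested separately in each genotype, since the genes were not chosen on it. No member changed with age past the threshold, and by edgeR's quasi-likelihood test 0% of tested genes did in either genotype; at an unadjusted p under 0.05 there were 4179 genes in wild type and 974 in geralt, and DESeq2 called 1129 (5.35%) and 62 (0.294%). KNAT2 came nearest in wild type, where all 12-day libraries lay below all 5-day libraries (12.1% of tested genes did so), with a log2 fold change of -1.48 ± 0.42 (SE) and an edgeR adjusted p of 0.146. DESeq2 called this value. In geralt, KNAT1 had a log2 fold change with age of -0.89 ± 0.28 (SE, edgeR adjusted p = 0.869), and the 12-day libraries of STM and KNAT1 lay below their 5-day libraries (4.65% of tested genes did so). STM itself moved by -0.11 ± 0.25 in wild type (edgeR adjusted p = 0.837) and by -0.26 ± 0.25 in geralt (adjusted p = 1). Without wild-type library 4 the wild-type value of STM was 0.24 and that of KNAT1 0.06 in place of -0.20.

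The difference of the geralt effect between ages was tested as an interaction. No member was past the threshold, and 0% of tested genes were by edgeR's quasi-likelihood test, with 2185 genes at an unadjusted p under 0.05 and 78 (0.369%) called by DESeq2. For STM the interaction was -0.15 ± 0.35 (SE, log2). STM was chosen for a rise at both ages, so its value is a description only. For KNAT1 the interaction was -0.70 ± 0.40 (edgeR adjusted p = 0.538). KNAT2 had the largest value of the 9, 1.26 ± 0.58 (edgeR adjusted p = 0.481), followed in size by CUC2 at -0.96 ± 0.85 (adjusted p = 0.695). These results do not show that the effect was the same at both ages.

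Genes that act with these regulators were taken from 10 lists that name 116 genes, 113 of them in the files and 108 with enough reads. Over the mean of both ages 7 of the 108 were called higher and 1 lower, against 2.21% of all tested genes called higher and 3.32% called lower. None was called at 5 days and 1, lower, at 12 days, where 0.365% of tested genes were called lower. The lists are described by counts and medians of the log2 fold change over both ages, beside a median of 0.00 over all tested genes; adjusted p-values are from edgeR over all tested genes.

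Among the other KNOX genes, 1 of 5 rose, with a list median of 0.05. KNATM encodes a KNOX protein without a homeodomain that pairs with BELL proteins. It rose by a log2 fold change of 2.51 ± 0.50 (SE, edgeR adjusted p = 0.0169), with geralt above wild type at both ages. The call ended without wild-type library 8 (2.36). KNATM was scarce, so the size of its rise rests on low wild-type levels. At 5 days its mean CPM was 0.271 ± 0.242 (SD) for wild type against 1.86 ± 0.997 for geralt. The 12-day means were 0.201 ± 0.113 against 1.05 ± 0.488. The class II genes KNAT3, KNAT5 and KNAT7, which promote differentiation, stood at 0.37, 0.05 and -0.42. Among BELL partners, which bind KNOX proteins and carry them into the nucleus, 1 of 12 tested fell and none rose (median 0.06). BLH4, known with BLH2 for restraining KNAT1 in leaf margins, fell by 0.69 ± 0.18 on the log2 scale over both ages (edgeR adjusted p = 0.0468) and by 1.28 ± 0.26 at 12 days (adjusted p = 0.0461). The call over both ages was lost in 10 of the 12 fits without 1 library (all but those without wild-type library 4 or 6), with log2 fold changes of -0.78 to -0.59. The 12-day call was lost in every fit but that without wild-type library 6, with log2 fold changes of -1.46 to -1.08. BLH9, the main partner of STM and KNAT1, stood at 0.16.

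Of 11 boundary genes tested (the CUC genes not among them), 3 rose and none fell, with a list median of 0.48 over both ages, 1.04 at 5 days and 0.04 at 12 days. LOB, expressed at the base of lateral organs, rose by a log2 fold change of 2.46 ± 0.40 (SE, edgeR adjusted p = 0.00757), with geralt above wild type at both ages, and was called in all 12 fits without 1 library. RAX1, a MYB factor of axillary meristems, rose by 1.56 ± 0.40 (edgeR adjusted p = 0.0405). LSH3, known to be switched on by CUC1, rose by 0.94 ± 0.25 (edgeR adjusted p = 0.0441). RAX1 was scarce, and its wild-type means were 0.198 ± 0.0215 (SD) at 5 days and 0.263 ± 0.0919 CPM at 12 days. The geralt means of RAX1 were 0.669 ± 0.318 and 0.698 ± 0.243 CPM. The calls of RAX1 and LSH3 were each lost in 9 of the 12 fits, with log2 fold changes of 1.39 to 1.73 and 0.83 to 1.09. RAX1 was called without wild-type library 12 or geralt library 7 or 11, and LSH3 without wild-type library 4 or 10 or geralt library 11. With exon reads alone RAX1 was not called (1.39).

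Of 13 shoot stem cell genes tested, none passed in either direction, and the median was 0.33 at 5 days, -0.32 at 12 days and -0.03 over both ages. CLV1, the receptor that limits the stem cell pool, stood at -0.66 ± 0.21 (SE, edgeR adjusted p = 0.092). WUS and CLV3, which define the stem cell niche, were close to 0 and had too few reads for the test. At 5 days WUS had 0 to 7 reads per library in wild type and 7 to 17 in geralt. At 12 days it had 0 to 2 reads per library in wild type and 0 in geralt. CLV3 had 0 to 4 reads per library. Summed over the 15 genes of this list, the level was 407 to 441 CPM in wild type and 484 to 660 CPM in geralt at 5 days. At 12 days it was 508 to 685 and 414 to 529 CPM. In the 5-day sum HAM3 (mean 47.9 against 112 CPM in geralt) and BAM2 (83.3 against 115) differed most. At 5 days 12 of the 13 log2 fold changes were above 0, and CLV1 was lower in geralt (46.6 against 37.8 CPM). Whether the amount of stem cell tissue differed was not tested.

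Of 22 leaf polarity genes, 2 rose and none fell (median 0.20). ARF4, an auxin response factor of the lower leaf side, rose by 0.80 ± 0.17 (SE, log2, edgeR adjusted p = 0.0194) and YAB5, a YABBY factor of the same side, by 0.54 ± 0.12 (adjusted p = 0.0236). The call of ARF4 was lost without wild-type library 2 or 8 or geralt library 7, and that of YAB5 without wild-type library 2 or 8 or geralt library 1, 3 or 9, with log2 fold changes of 0.64 to 0.88 and 0.49 to 0.58. None of 10 chromatin repressors of KNOX genes passed (median 0.10), among them HIRA (0.22), RING1B (0.40), HDA6 (0.27) and HDA19 (0.26). None of 8 CIN-type TCP genes, which push leaf cells to differentiate, passed either (median -0.01).

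Gibberellin enzymes downstream of KNOX proteins and genes of cytokinin synthesis, breakdown and response gave 1 call. GA2OX2, which inactivates gibberellin, rose by 1.00 ± 0.22 (SE, log2, edgeR adjusted p = 0.0254), 1 of 6 in its list (median -0.27); the call was lost without wild-type library 2 or 8 or geralt library 1, 3, 7 or 9, with values of 0.85 to 1.16. The biosynthetic genes GA20OX3 and GA3OX1 stood at -1.09 ± 0.58 and -0.59 ± 0.28. None of 17 cytokinin genes passed (median -0.06), among them IPT3 (0.69), LOG1 (-1.27), CKX3 (-0.87) and CKX5 (-1.52). None of the other miR164 targets passed: NAC1, ORE1, NAC079 and NAC100 stood at -0.23, -0.58, -0.31 and 0.05 (median -0.27).

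**Figure D4:**
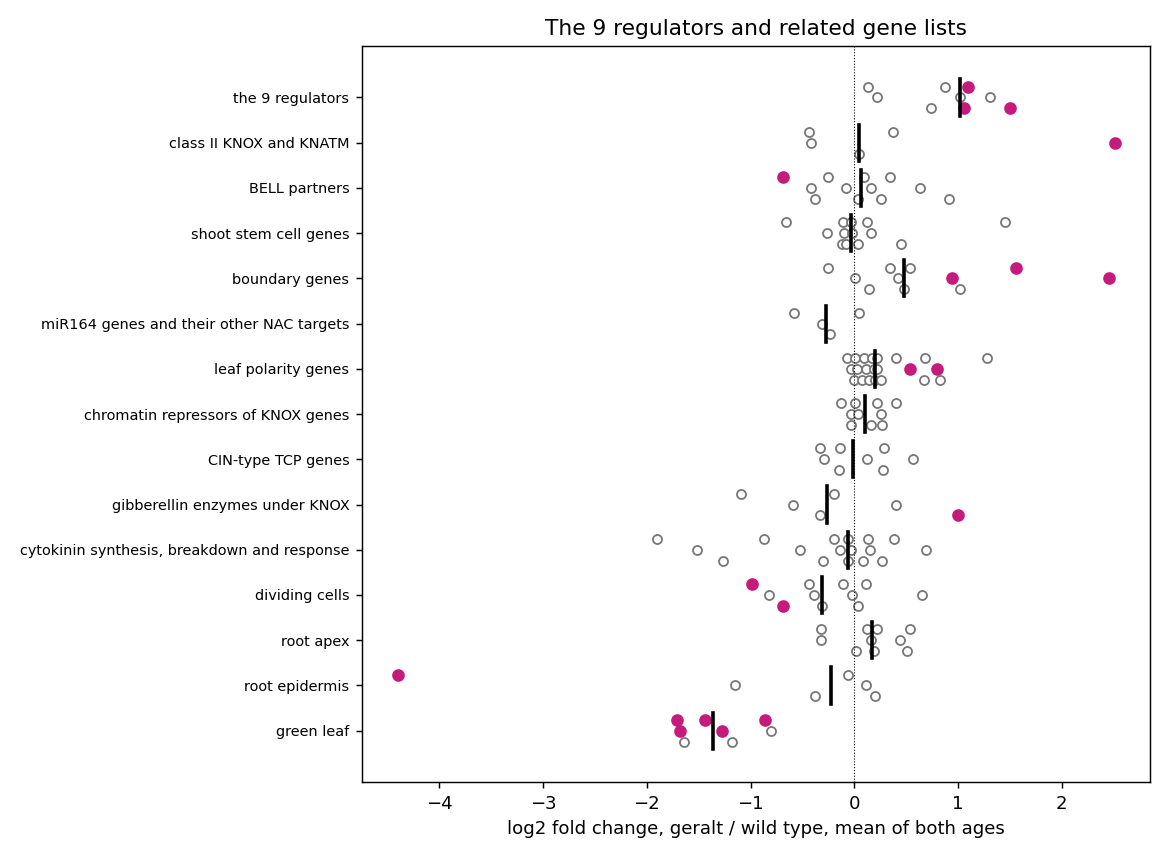
Log2 fold change of geralt against wild type over the mean of both ages (x axis) for each tested gene of each list; filled points passed an adjusted p of 0.05, and a vertical bar is the list's median. The 9 regulators have a median of 1.02, boundary genes 0.48, and green leaf genes -1.36.

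Markers of cell types that a whole seedling holds were compared as well. Of 11 genes of dividing cells none was called higher and 2 were called lower over both ages. These were CYCB1;2, a mitotic cyclin, by 0.99 ± 0.21 (SE, log2, edgeR adjusted p = 0.022) and CYCD3;2, a G1 cyclin, by 0.69 ± 0.14 (adjusted p = 0.0171). The list median was -0.62 at 5 days, -0.00 at 12 days and -0.31 over both ages. Above 0 stood 2, 5 and 3 of the 11 genes, among them CYCB1;1 at 12 days (1.19 ± 0.50) and over both ages (0.65 ± 0.35). The call of CYCB1;2 was lost without wild-type library 2 or 8 or geralt library 1, 3 or 7 (-1.11 to -0.86 over the 12 fits), and that of CYCD3;2 in none of the 12. The summed level of this list was 219 to 247 CPM in wild type and 186 to 189 CPM in geralt at 5 days, and 131 to 240 and 151 to 211 CPM at 12 days. Of 8 green leaf genes 5 fell (median -1.36), LHCA1 by 1.71 ± 0.40 (adjusted p = 0.0307) and RBCS1A by 1.28 ± 0.33 (adjusted p = 0.0408) among them, and their calls were lost in 7 and 9 of the 12 fits (-1.99 to -1.49 and -1.43 to -1.08). LHCA1 was called without wild-type library 4, 6 or 12 or geralt library 5 or 11, and RBCS1A without wild-type library 4 or geralt library 5 or 11. The summed level of the 8 green leaf genes at 5 days was 46700 to 90100 CPM in wild type and 23800 to 37200 CPM in geralt, and at 12 days 101000 to 147000 and 13900 to 69700 CPM.

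Of 10 root apex genes none passed (median 0.17). Summed over the list, 5-day libraries ranged from 72.2 to 74.5 CPM for wild type and from 91.7 to 131 for geralt. At 12 days these ranges were 67.9 to 116 and 75.5 to 89.5 CPM. The largest parts of the 5-day sum were SCR (mean 37.2 against 60.7 CPM in geralt) and SHR (18.8 against 28.5). At 5 days 8 of the 10 log2 fold changes were above 0, that of PLT1 barely (0.00 ± 0.56, SE). WOX5 and SMB stood at -1.06 ± 0.77 and -0.31 ± 0.54. Whether the amount of root apex tissue differed was not tested. Of 6 root epidermis genes 1 fell, the nitrate transporter NRT2.1 by 4.4 ± 0.92 (SE, log2, edgeR adjusted p = 0.0205; -4.8 to -3.42 without 1 library, with the call lost without wild-type library 2 or geralt library 1, 3 or 7). Wild-type libraries varied widely in NRT2.1, with 6.25 ± 8.09 CPM (mean ± SD, n = 3) at 5 days and 139 ± 176 CPM at 12 days. In geralt it had 0.312 ± 0.0254 and 6.09 ± 4.68 CPM, and the genotypes overlapped at 12 days. The summed level of the root epidermis list was 65.2 to 91.9 CPM in wild type and 71.3 to 133 CPM in geralt at 5 days. At 12 days it was 109 to 736 and 72.9 to 198 CPM. The largest parts of the 12-day wild-type sum were PRP3 (151 ± 148 CPM, SD) and NRT2.1. The part of these cell types in the level of STM and its relatives was not tested.

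Genes most like STM over the 12 libraries were found by Pearson correlation of log2 CPM among 16622 genes. The 5 nearest were AT4G29200 (r = 0.97), AT1G17960 (0.96), AT3G43670 (0.95), ABCG18 (AT3G55110, 0.95) and AT5G13370 (0.95). After the group means were subtracted, r was 0.86, 0.82, 0.60, 0.83 and 0.87. The 12 libraries share the genotype groups and the library differences described above, so these values are a description only. KNAT1 ranked at 136 (r = 0.84, and 0.45 within groups), AS2 at 622 (0.71, and -0.16), KNAT6 at 1039 (0.64, and -0.20) and AS1 at 4685 (0.28, and 0.32). The other members were too low for this ranking.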

How the data were processed

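Total gene reads per gene were used as deposited: whole-number counts, with TPM values of the authors beside them, per the file headers. The authors also deposited log2 fold changes and FDR-adjusted p-values for geralt against wild type. Reads were assigned to TAIR10, per the submitters' processing notes; the sources used here name no aligner, counter or strand setting. Library totals were 41.6 to 115 M reads, of which 99.21% to 99.51% were unique. The lane of each library was not given, so batches could not be compared. The labels call the libraries biological replications without stating separate growth, so p-values measure the spread between these libraries.

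Genes were filtered by filterByExpr, scaled by TMM and fitted over all 12 libraries with 4 group means and 8 residual degrees of freedom by edgeR 4.0.16 (quasi-likelihood; R 4.3.3), with Benjamini-Hochberg adjustment over 21122 genes at 0.05. The SE of each log2 fold change is its absolute value divided by the square root of the F statistic of the edgeR test. The scripts were tested on simulated data. DESeq2 1.42.0, other scalings, exon, intron or unique reads, and fits without libraries were alternatives. Members, gene lists and tests were chosen with earlier results of these data known. Named list genes are up to 4 per list with the smallest genotype p, and every called gene. Sequences come from RefSeq TAIR10.1, in which 27443 of 27445 chromosome genes have the same position as in the files.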

Additional observations from a re-analysis of the deposited data

How the results depend on the processing

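No paired analysis was possible because each library number occurs once and the labels name no couples of libraries; couples of consecutive numbers would be a guess from order and were not fitted. STM kept its direction between genotypes under every alternative run, with 1.42 to 1.68 over both ages when 1 library was left out; so did KNAT1. The number of members called was 2 with DESeq2 at 5 days (STM and KNAT1), 2 at 12 days (STM and KNAT2), 6 over both ages and 1 for age in wild type (KNAT2). With only the libraries compared it was 3 at 5 days (STM, KNAT1 and AS2) and 0 at 12 days, and with intron reads, an alternative added after seeing the data, 0 in all 3 genotype comparisons. Without wild-type library 4 and geralt library 5, or without wild-type libraries 4 and 12, it was 2 at 5 days. Leaving out 1 library gave 0 to 2 members called at 5 days, 0 to 2 at 12 days and 2 to 4 over both ages. Among these alternatives the share of all genes called is given above for DESeq2 only, and nothing is read from the numbers of members.

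Pathway list genes called at 5 days numbered 8 with DESeq2, 9 with only the libraries compared, and 5 without libraries 4 and 5 or 4 and 12. At 12 days they numbered 7 with DESeq2, 2 with no filter on low counts, and 0 with intron reads, with only the libraries compared, and without either pair. Over both ages they numbered 13 with DESeq2 and 0 with intron reads; DESeq2 called 7 for age in wild type and 1 for the interaction. Without 1 library they ranged over 0 to 2 at 5 days, 0 to 2 at 12 days, 1 to 10 over both ages and 0 to 2 for age in wild type. All these numbers are out of 108 list genes tested. Of all tested genes DESeq2 called 4.28% at 5 days, 6.51% at 12 days and 10.8% over both ages. It called 5.35% for age in wild type and 0.369% for the interaction. For the other alternatives that share is not given, and nothing is read from the numbers.

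Reversed log2 fold changes were all of values that were small or not called, save for those of YAB5 (-0.45) and GA2OX2 (-0.20) with intron reads. Between genotypes, CUC3 reversed at 5 days with exon reads (0.01), and without libraries 4 and 5 CUC2 was -0.33 and CUC3 -0.37 at 12 days and CUC3 -0.21 over both ages. For age in wild type, STM was 0.65 with intron reads, 0.25 without libraries 4 and 5 and 0.14 without 4 and 12; KNAT1 was 0.07 and 0.03 under these pairs, and AS2 0.10 without 4 and 12. For age in geralt KNAT2 was 0.26 with intron reads. For the interaction KNAT6 was -0.01 with intron reads, and CUC1 was -0.18 and CUC3 -0.32 without libraries 4 and 5. Leaving out 1 library, CUC3 ranged from -0.95 to 0.40 at 5 days, -0.37 to 0.87 at 12 days and -0.24 to 0.44 over both ages, and CUC2 from -0.33 to 0.88 at 12 days. For age in wild type the ranges were -0.28 to 0.24 (STM), -0.34 to 0.06 (KNAT1), -0.14 to 0.52 (CUC2) and -0.63 to 0.14 (AS2), and in geralt -0.81 to 0.26 (CUC1) and -0.89 to 0.87 (CUC3). For the interaction they were -0.50 to 0.02 (STM), -0.16 to 0.93 (CUC1), -0.35 to 1.43 (CUC3) and -0.65 to 0.12 (AS2). The cause was not tested for any of these. KNAT2, CUC2 and CUC3 had as few as 11, 9 and 5 reads in a library.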
